A study of Saccharomyces cerevisiae with 21 samples.

Results

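The genes described here act in the synthesis of histidine, the aromatic amino acids, threonine, serine, glutamate, glutamine, asparagine, proline and cysteine in Saccharomyces cerevisiae, together with the entry into isoleucine and valine and the regulator GCN4. They were picked by name from the coding sequences of the deposited tables, and all 42 were found among 6571. Genes for arginine, leucine, lysine and methionine synthesis are not members. Polyadenylated RNA was sequenced from 7 groups of 3 libraries. The humanized strain carries a humanized form of U1C, a protein of the U1 snRNP that recognizes the 5′ splice site. It was sampled at high density (OD600 near 8) and at low density (near 0.4). Its wildtype was sampled at high density (near 5) and at low density (near 0.4). The Luc7 triple mutant, altered in another U1 snRNP protein, was labelled low density. The Luc7 degron strain was sampled after depletion with beta-estradiol and IAA for 6 hours and as an undepleted culture labelled without IAA. The sources used here give neither its density nor the alleles that make up the triple mutant. The high-density samples came from an earlier experiment than the low-density ones, so density and experiment cannot be told apart, and at high density the OD600 of the strains differed. Media were YPD or dropout, and the labels do not assign them to groups.

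Budding yeast makes most of its amino acids, and a shortage of any of several of them raises the enzymes of many pathways at once, a response called general amino acid control. Uncharged tRNA activates the kinase Gcn2, which raises translation of GCN4 through short upstream reading frames in its mRNA. The Gcn4 protein, a basic leucine zipper activator, then binds TGACTC and related sites upstream of its targets. Because the main control of Gcn4 is translational, a level of GCN4 mRNA is not a level of the protein. None of the 42 members has an annotated intron, so no member is itself a spliced gene.

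Libraries held 28.5 to 46.8 M reads assigned to coding sequences. The members together took 1.998 to 2.52% of them in wildtype at high density, with 1.998% in replicate 2, and 1.28 to 1.34% in depleted degron cells. In the other 5 groups the share lay between 1.45 and 1.71%. Levels below are reads per kb of coding sequence scaled to equal library size (RPKM), normalized over all 21 libraries. LEU2 had 123 to 859 RPKM in the Luc7 strains and no read in the wildtype and humanized libraries. URA3 had 29.3 RPKM in depleted degron replicate 1 and at most 3.70 in the other Luc7 libraries. In the wildtype and humanized libraries URA3 had 587 RPKM or more. LYS2 had no read in any library. The strains therefore differ in nutritional markers besides their U1 snRNP proteins, and this cannot be told apart from the Luc7 alleles. All libraries carried a-type mating RNA (STE2 at 209.9 to 768 RPKM, with MFA1 at 0 to 22.3), and the 3 alpha-type markers summed to 13.9 to 23.9 RPKM. The 4 a-type markers summed to 257 to 280.5 RPKM in depleted against 733 to 807 in undepleted cells. They summed to 844 to 985 RPKM in wildtype at high density against 460.5 to 532 at low density. Their part in the results below was not tested. The humanized strain at low density, the triple mutant and the undepleted degron cells were all set against the same wildtype libraries, so those comparisons share them. Whether replicates were grown separately is not labelled, so p-values measure the spread between these libraries. In bulk RNA, a lower level per cell and fewer cells with the transcript cannot be told apart.

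Upstream sequences were read from the R64 (sacCer3) genome because the members are known for shared control through the Gcn4 core motif TGACTC. A window of 300 bases, starting 400 bases before the start codon, held the motif on either strand in 23 of 42 members (54.8%), against 507 of 5875 nuclear coding sequences (8.63%). It was there at least 2 times in 5 members (11.9%), against 48 of all (0.817%). These 5 are the histidine genes HIS4 and HIS5 with 3 matches each and HIS1, HIS3 and HIS7 with 2 each. A match describes letters and does not show binding. Only TGACTC and its reverse complement were searched, so related sites were not counted. The 4 windows below are shown because HIS4 held the most matches and varied most, HIS3 has the classical Gcn4 site, ARO3 fell with them in humanized cells at high density but has no match in this window, and PRO3 holds a match and fell in the triple mutant, where the others rose. Each runs 5′ to 3′ toward the gene, and capitals mark TGACTC or its reverse complement GAGTCA. Coding sequences lie at chrIII:65934-68333 for HIS4 (YCL030C), chrXV:721946-722608 for HIS3 (YOR202W), chrIV:521816-522928 for ARO3 (YDR035W) and chrV:201076-201936 for PRO3 (YER023W), each a single coding segment. The windows reach into the neighbouring coding sequences BIK1, MRM1, CPP3 and SRB4 in that order.
HIS4 (chrIII:68434-68733, minus strand): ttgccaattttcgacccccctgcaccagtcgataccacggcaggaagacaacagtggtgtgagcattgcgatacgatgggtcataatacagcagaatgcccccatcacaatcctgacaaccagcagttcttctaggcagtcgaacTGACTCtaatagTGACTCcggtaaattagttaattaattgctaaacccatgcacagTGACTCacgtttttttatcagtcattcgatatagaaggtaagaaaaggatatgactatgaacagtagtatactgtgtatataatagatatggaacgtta
HIS3 (chrXV:721546-721845, plus strand): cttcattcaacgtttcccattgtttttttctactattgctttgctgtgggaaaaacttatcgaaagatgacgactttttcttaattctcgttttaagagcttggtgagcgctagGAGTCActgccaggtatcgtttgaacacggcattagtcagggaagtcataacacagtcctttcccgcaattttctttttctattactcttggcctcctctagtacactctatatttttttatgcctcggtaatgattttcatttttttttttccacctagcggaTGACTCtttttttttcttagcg
ARO3 (chrIV:521416-521715, plus strand): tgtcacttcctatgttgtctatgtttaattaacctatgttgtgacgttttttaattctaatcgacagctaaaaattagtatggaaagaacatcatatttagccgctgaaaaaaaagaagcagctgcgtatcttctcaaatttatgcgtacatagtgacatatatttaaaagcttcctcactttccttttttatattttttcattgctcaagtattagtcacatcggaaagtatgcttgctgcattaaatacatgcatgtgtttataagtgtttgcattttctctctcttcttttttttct
PRO3 (chrV:200676-200975, plus strand): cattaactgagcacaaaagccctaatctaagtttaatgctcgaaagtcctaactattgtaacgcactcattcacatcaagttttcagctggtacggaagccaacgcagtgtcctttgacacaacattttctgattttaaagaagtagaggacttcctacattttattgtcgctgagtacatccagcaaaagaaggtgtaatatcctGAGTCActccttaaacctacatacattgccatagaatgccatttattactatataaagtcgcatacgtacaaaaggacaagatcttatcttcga

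**Figure D1:**
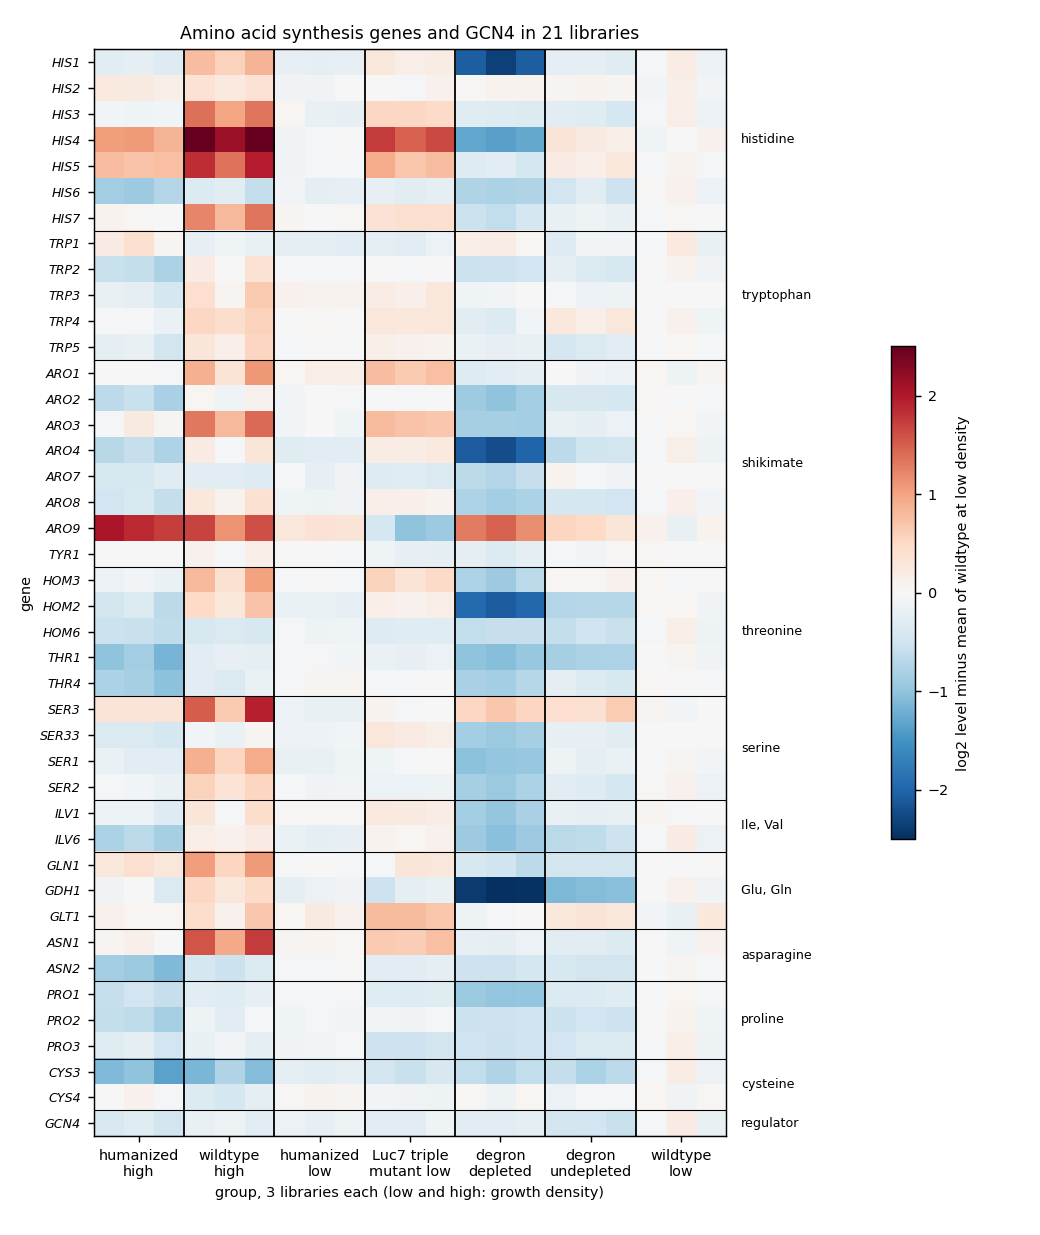
Log2 level of each of the 42 members (rows, by pathway) in each of the 21 libraries (columns, 3 per group), less its mean in wildtype at low density; red is higher and blue lower. The column block of wildtype at high density is the reddest, with HIS4 the darkest row there, and that of depleted degron cells is the bluest.

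Across the 7 groups the members varied by very different amounts. The ratio of a member's highest to its lowest group mean had a median of 2.09 and ran from 1.28 for TYR1, the prephenate dehydrogenase of tyrosine synthesis, to 14.8 for HIS4. HIS4 encodes an enzyme with several activities in histidine synthesis. Next came GDH1 (YOR375C, 7.58), the NADPH-dependent glutamate dehydrogenase, HIS1 (YER055C, 7.36), the first enzyme of histidine synthesis, and ARO9 (YHR137W, 6.24), an aromatic aminotransferase used in breakdown. The highest group mean fell in wildtype at high density for 25 members and in wildtype at low density for 10. The lowest fell in depleted degron cells for 25 members and in humanized cells at high density for 8. GLN1, the glutamine synthetase gene, and GCN4 were the most abundant, with group means of 759 to 2013 and 1168 to 1658 RPKM. HIS6, an isomerase of histidine synthesis, was among the least abundant, at 32.8 to 58.6 RPKM.

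GCN4 (YEL009C, chrV:138918-139763, minus strand) moved little. Its 21 libraries lay between 1113 and 1906 RPKM, a range set by undepleted degron replicate 3 and wildtype low-density replicate 2, and its group means differed by 1.42 times from highest to lowest. The largest change was between undepleted degron cells, with 1205, 1186 and 1113 RPKM, and wildtype at low density, with 1610, 1906 and 1457 RPKM. The groups did not overlap, and GCN4 fell in undepleted cells (log2 fold change −0.49 ± 0.09, SE, adjusted p = 0.000628, edgeR quasi-likelihood test as in all that follows). In depleted cells it had 1350, 1346 and 1389 RPKM and rose over undepleted cells (+0.22 ± 0.06, adjusted p = 0.00808). Centred TPM values gave +0.17 (adjusted p = 0.0502, limma) for the depletion and plain TPM values +0.05 (0.550) for undepleted cells against wildtype. Humanized and wildtype cells at high density gave no call for GCN4 (−0.18 ± 0.08, adjusted p = 0.139), and neither did the other comparisons of these 2 strains (adjusted p = 0.0565 to 0.977). DESeq2 did call GCN4 lower in humanized cells at high density (adjusted p = 0.0345), and at high against low density in humanized cells (0.0220) and in wildtype (0.0438). The correction for length and GC content called all 3 as well (0.0160, 0.00746 and 0.0427), and the replicate number as a block called it over density in humanized cells (0.0364).

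**Figure D2:**
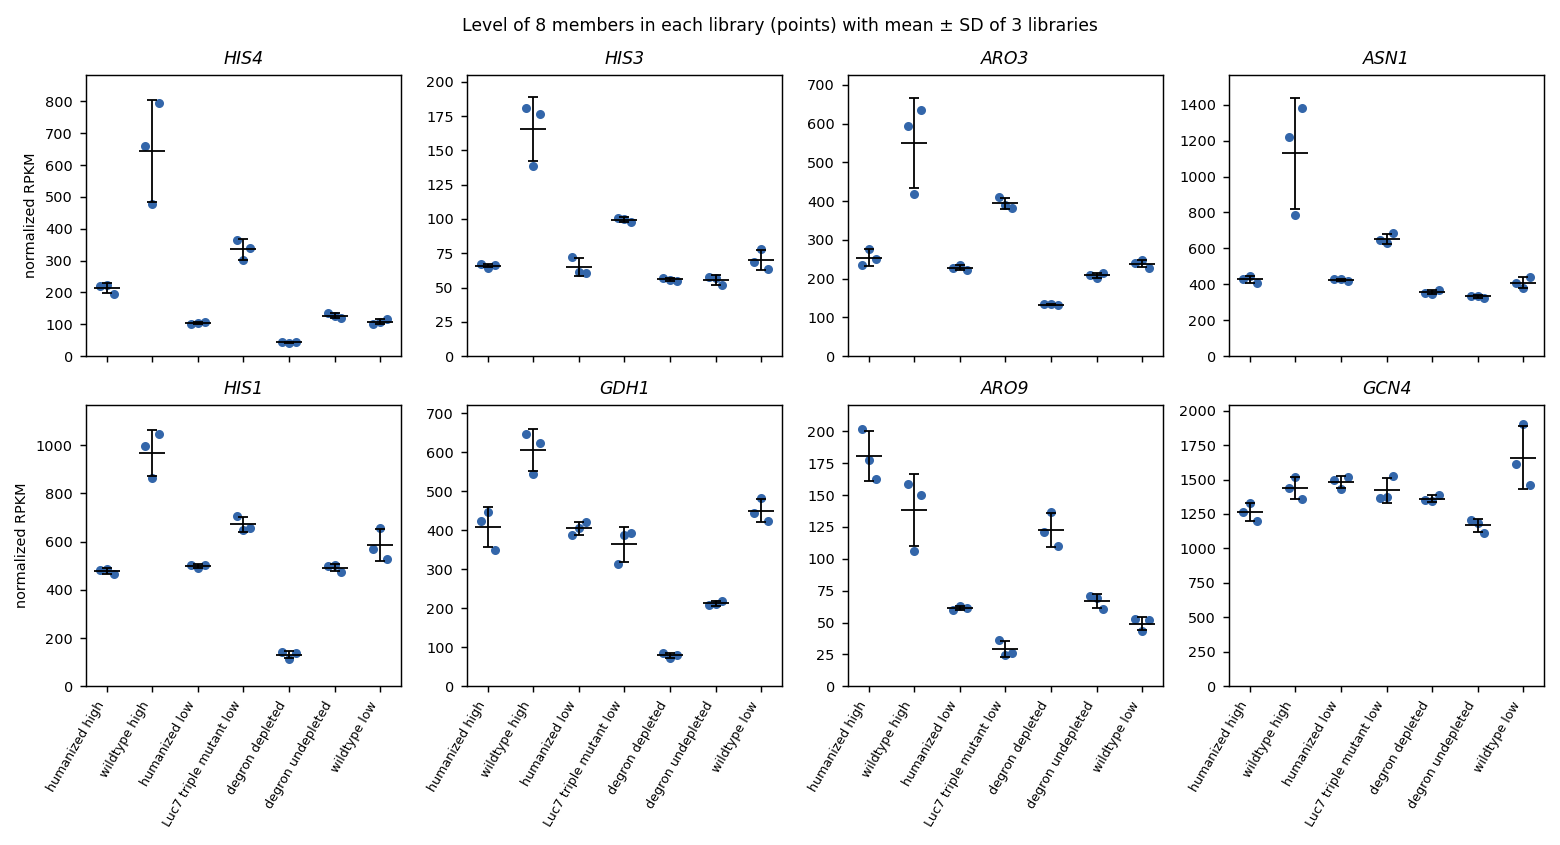
Level in RPKM of 8 members in each library (points) with mean ± SD of 3 libraries (bars), by group on the horizontal axis. HIS4, HIS3, ARO3 and ASN1 are highest in wildtype at high density, HIS1 and GDH1 lowest in depleted degron cells, ARO9 lowest in the Luc7 triple mutant, and GCN4 stays between 1113 and 1906 RPKM.

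At high density the humanized strain was set against wildtype, the question being what the humanized U1C changed in post-log cells. Most amino acid synthesis genes were lower in humanized cells. Of the 42 members 31 fell and 2 rose, where 12.6% of all 6119 tested genes fell and 16.0% rose. The members' median log2 fold change was −0.60, against 0.00 for all genes, and groups did not overlap for 38 members, against 46.0% of all genes. Without wildtype replicate 2, the library with the lowest member share of its group, 32 fell.

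HIS4 had 222, 224 and 195 RPKM in humanized cells against 660, 478 and 796 RPKM in wildtype at high density. The lowest wildtype library held more than 2 times the highest humanized one, and the fold change was 3.01-fold lower (−1.59 ± 0.17, adjusted p = 0.00113). HIS3, the dehydratase widely used as a marker, had 66.9, 64.5 and 66.7 RPKM in humanized cells against 181, 138 and 176 in wildtype (−1.32 ± 0.10, adjusted p = 0.000333). The tight humanized libraries lay below all 3 wildtype ones. Of the other histidine genes, HIS7, which closes the imidazole ring, fell (−1.09 ± 0.12, adjusted p = 0.00132), as did HIS1 and HIS5, the histidinol-phosphate aminotransferase gene, and HIS2, the phosphatase gene, was not called (−0.11 ± 0.06, adjusted p = 0.195). In all 6 of 7 histidine genes fell.

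Both asparagine synthetase genes fell. ASN1 (YPR145W) had 432, 446 and 408 RPKM in humanized cells against 1220, 785 and 1382 in wildtype (−1.39 ± 0.19, adjusted p = 0.00257), and ASN2 had 375, 361 and 320 against 505, 474 and 539 RPKM (−0.52 ± 0.09, adjusted p = 0.00544). Their coding sequences are 81.0% identical and share runs of up to 83 bases, so reads may be divided between them with some error. The first step of the shikimate pathway has 2 isozymes, feedback-inhibited by phenylalanine (ARO3) and tyrosine (ARO4). ARO3 fell (254 ± 21.8 against 550 ± 116 RPKM, SD, n = 3 each, −1.11 ± 0.15, adjusted p = 0.00275), and so did ARO4 (369 ± 23.0 against 663 ± 74.6 RPKM, −0.84 ± 0.10, adjusted p = 0.00137). ARO8, the main aromatic aminotransferase gene, fell too (−0.73 ± 0.09, adjusted p = 0.00213), whereas ARO9 had 202, 178 and 162 against 159, 106 and 150 RPKM and was not called (+0.39 ± 0.15, adjusted p = 0.0900).

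The 4 serine genes all fell. SER3 and SER33 encode the first enzyme of the pathway and are 82.7% identical. SER3 had 90.2, 90.1 and 90.2 RPKM in humanized cells against 208, 114 and 279 in wildtype (−1.14 ± 0.27, adjusted p = 0.0207), and SER33 changed by −0.33 ± 0.07 (adjusted p = 0.0132). Wildtype values of SER3 spread widely. Its call was lost without any 1 humanized library (adjusted p = 0.0555 to 0.0780) or wildtype replicate 1 (0.0657), and that of SER33 when humanized replicate 1 (0.0627), humanized replicate 2 (0.0654) or wildtype replicate 1 (0.0522) was left out. Counts by pathway were 4 of 5 lower for tryptophan, 5 of 8 for the shikimate genes, 4 of 5 for threonine, both isoleucine and valine genes, 2 of 3 glutamate genes and 2 of 3 proline genes. Among these, GLN1 and ILV1 each kept their call in 8 of 15 alternatives, and HIS6 in 10 of 15. All 3 lost it under the replicate block and without humanized replicate 1, humanized replicate 2 or wildtype replicate 1, and GLN1 and ILV1 also without humanized or wildtype replicate 3. The 2 genes that rose were TRP1 and CYS4. TRP1, which encodes the isomerase of tryptophan synthesis, had 117, 135 and 107 RPKM in humanized cells against 88.7, 94.7 and 89.3 in wildtype (+0.40 ± 0.09, adjusted p = 0.0175). CYS4, cystathionine β-synthase, had 756, 808 and 723 against 592, 555 and 631 RPKM (+0.37 ± 0.08, adjusted p = 0.0152). Neither call was kept when humanized replicate 1, humanized replicate 2 or wildtype replicate 1 was left out (adjusted p = 0.0609, 0.0656 and 0.0777 for TRP1 and 0.0794, 0.0899 and 0.0817 for CYS4), so that count fell to 0 there. With the replicate number as a block 1 gene rose, and CYS4 lost its call (adjusted p = 0.0519).

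At low density the humanized strain differed little from its wildtype in these genes. Of the 42 members 2 fell, where 3.88% of 6107 tested genes fell and 2.67% rose, and edgeR called 0 higher. At an unadjusted p below 0.05 the counts were 1 higher and 12 lower, DESeq2 called 7 lower and limma on TPM 0, and neither called a member higher. Of all genes DESeq2 called 851, 429 of them higher, and limma on TPM called 191, 124 of them higher. The members' median was −0.07 against 0.00 for all genes, and groups did not overlap for 15 members, against 31.8% of all genes. ARO4 had 478, 490 and 488 RPKM in humanized cells against 579, 654 and 543 in wildtype (−0.29 ± 0.06, adjusted p = 0.0200). HOM2, the aspartate-semialdehyde dehydrogenase of threonine and methionine synthesis, had 481, 482 and 469 against 549, 558 and 505 RPKM (−0.18 ± 0.05, adjusted p = 0.0476). Both changes are small, and the count was 0 without any 1 humanized library or wildtype replicate 1. It was 9 without wildtype replicate 3, where 1569 of all genes were called, 889 of them higher. HOM2 also lost its call without wildtype replicate 2 (0.0760). HIS4 had 102, 105 and 107 RPKM in humanized against 99.5, 109 and 116 in wildtype cells (−0.05 ± 0.07, adjusted p = 0.665), with overlapping groups. HIS3 (−0.12 ± 0.08, adjusted p = 0.361), TRP1 (−0.26 ± 0.09, 0.0932) and GCN4 (−0.17 ± 0.08, 0.205) were not called.

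The difference between the 2 densities was tested as an interaction. The change in humanized cells was lower at high than at low density for 28 members and higher for 2, where 8.02% and 9.84% of all 6150 tested genes were. The members' median interaction was −0.56 against 0.00 for all genes. HIS4 had −1.53 ± 0.19 (adjusted p = 0.000349), ASN1 −1.43 ± 0.21 (0.000768), HIS3 −1.19 ± 0.15 (0.000311), HIS7 −1.11 ± 0.14 (0.000293) and ARO3 −1.03 ± 0.17 (0.00145). TRP1 had +0.66 ± 0.15 (adjusted p = 0.00957), and GCN4 was not called (−0.01 ± 0.13, 0.977). Without wildtype high-density replicate 2 the counts were 31 lower and 2 higher. The 4 groups also differ in experiment and in OD600 at high density, and the interaction is one of strain with all of these together.

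Within each strain high density was also set against low. In wildtype 22 of the 42 members rose and 9 fell, where 20.9% of 6150 tested genes rose and 22.7% fell, with a median of +0.27 against +0.01 for all genes. Groups did not overlap for 29 members, against 48.2% of all genes. HIS4 rose 5.90-fold, to 660, 478 and 796 RPKM at high density against 99.5, 109 and 116 at low density (+2.56 ± 0.14, adjusted p = 1.02e-07). HIS5 rose 3.32-fold (304 ± 63.7 against 90.6 ± 4.60 RPKM, SD, n = 3 each, +1.73 ± 0.12, adjusted p = 3.36e-07). ARO9 (+1.48 ± 0.13, adjusted p = 3.22e-06), SER3 (+1.45 ± 0.22, 0.000235), ASN1 (+1.44 ± 0.15, 1.26e-05), HIS3 (+1.22 ± 0.11, 2.78e-06) and ARO3 (+1.19 ± 0.12, 1.07e-05) rose as well. Of the 7 histidine genes 6 rose, and HIS6 fell (−0.41 ± 0.10, adjusted p = 0.00575). CYS3, cystathionine γ-lyase, fell 2.01-fold (340, 449 and 355 against 737, 856 and 682 RPKM, −1.01 ± 0.12, adjusted p = 4.29e-05), and CYS4 fell too (−0.36 ± 0.07, 0.000911). The asparagine synthetase genes went opposite ways, since ASN2 fell (506 ± 32.4 against 688 ± 29.7 RPKM, −0.46 ± 0.07, adjusted p = 0.000226). Without wildtype high-density replicate 2 the counts were 26 higher and 11 lower.

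Humanized cells at high against low density had 6 members higher and 19 lower, where 27.7% and 26.7% of 6150 tested genes were, with a median of −0.17 against +0.02. Groups did not overlap for 32 members, against 67.8% of all genes. On the plain TPM scale, which moved the median of all genes to +0.23, limma called 11 members higher and 11 lower. Of all genes it called 3411 on that scale, 2703 of them higher. HIS4 rose in this strain as well, but 2.04-fold (222, 224 and 195 against 102, 105 and 107 RPKM, +1.03 ± 0.14, adjusted p = 5.88e-05), and HIS5 rose 1.75-fold (+0.81 ± 0.11, 7.92e-05). HIS3 (+0.03 ± 0.11, adjusted p = 0.849), ASN1 (+0.01 ± 0.15, 0.960) and ARO3 (+0.15 ± 0.12, 0.298) were not called. ARO9 rose 2.94-fold (+1.56 ± 0.13, adjusted p = 1.29e-06), and its interaction was not called (+0.08 ± 0.18, 0.813). THR1 (−0.95 ± 0.07, adjusted p = 7.8e-07) and THR4 (−0.91 ± 0.07, 5.53e-07), the last enzymes of threonine synthesis, and ASN2 (−0.93 ± 0.07, 5.11e-07) fell 1.93-, 1.88- and 1.91-fold. CYS3 fell by 0.90 ± 0.12 (adjusted p = 6.14e-05).

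**Figure D3:**
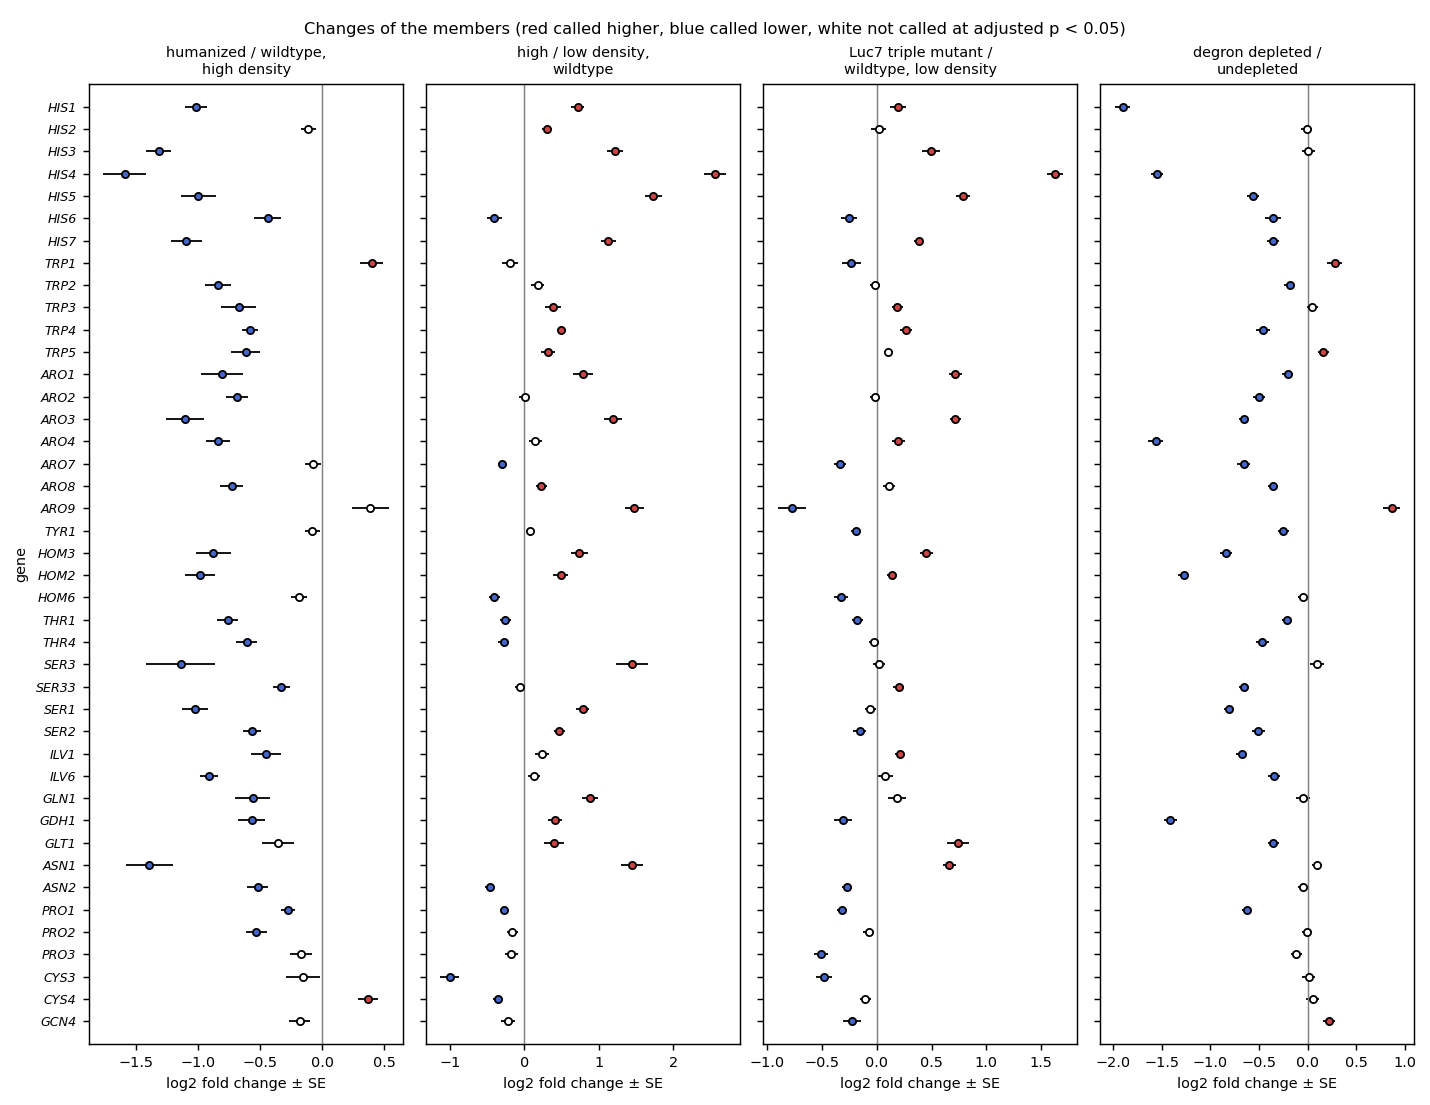
Log2 fold change ± SE of every member (rows) in 4 comparisons (panels, each with its own horizontal axis); red points were called higher, blue lower, and white were not called. Blue dominates in humanized over wildtype cells at high density (31 of 42) and in depleted over undepleted cells (26 of 42), while wildtype over density (22 red, 9 blue) and the triple mutant (16 red, 14 blue) hold both.

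For the triple mutant the same low-density wildtype libraries served as the comparison, to ask which transcripts differ with altered Luc7. Of the 42 members 16 rose and 14 fell, where 28.3% of 6107 tested genes rose and 26.5% fell, and the members' median was +0.02 against 0.00. Groups did not overlap for 28 members, against 61.7% of all genes. Of the histidine genes 5 of 7 rose, with HIS6 lower and HIS2 not called, whereas 2 of 3 proline genes, 1 of 2 cysteine genes and ARO9 fell. HIS4 had 364, 301 and 340 RPKM in the mutant against 99.5, 109 and 116 in wildtype, a 3.09-fold rise (+1.63 ± 0.07, adjusted p = 1.26e-07) with a wide gap between the groups. HIS5 rose 1.73-fold (+0.79 ± 0.06, adjusted p = 5.75e-06), and HIS3 had 100.7, 100.2 and 97.7 against 68.9, 78.1 and 63.6 RPKM (+0.50 ± 0.08, 0.000629). GLT1, the glutamate synthase gene (+0.74 ± 0.10, adjusted p = 0.000195), ARO3 (+0.72 ± 0.05, 1.51e-06), ARO1, which encodes the pentafunctional shikimate enzyme (+0.72 ± 0.06, 7.69e-06), and ASN1 (+0.66 ± 0.06, 1.08e-05) rose.

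ARO9 had 36.1, 24.5 and 26.2 RPKM in the triple mutant against 52.7, 43.1 and 52.0 in wildtype (−0.78 ± 0.13, adjusted p = 0.000614). PRO3, the last enzyme of proline synthesis, had 268, 266 and 276 against 374, 426 and 348 RPKM (−0.51 ± 0.06, adjusted p = 0.000104), and PRO1, the first, fell as well (−0.32 ± 0.04, 0.000187). CYS3 fell by 0.49 ± 0.07 (adjusted p = 0.000351). Within pairs, ASN2 fell (−0.27 ± 0.05, adjusted p = 0.000654) while ASN1 rose, and SER33 rose (+0.20 ± 0.05, 0.00560) while SER3 was not called (+0.02 ± 0.05, 0.807). The falls of TRP1 (−0.23 ± 0.09, adjusted p = 0.0432) and GCN4 (−0.23 ± 0.08, 0.0375) came with overlapping groups. Both were lost without mutant replicate 1 (adjusted p = 0.102 for TRP1 and 0.111 for GCN4), mutant replicate 2 (0.111 and 0.106), wildtype replicate 1 (0.0574 and 0.0608) or wildtype replicate 2 (0.101 and 0.0749). TRP1 lost it without mutant replicate 3 too (0.0625). With the replicate number as a block the adjusted p was 0.0585 for TRP1 and 0.0658 for GCN4, and with the correction for length and GC content 0.131 and 0.0661.

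After treatment to deplete Luc7 more members fell than rose. No library of another strain is labelled with beta-estradiol and IAA, so loss of Luc7 and the treatment itself cannot be told apart. Of the 42 members 26 fell and 4 rose in depleted against undepleted degron cells, where 34.3% of 6156 tested genes fell and 34.0% rose. The median was −0.35 against +0.01 for all genes, and groups did not overlap for 32 members, against 73.7% of all genes. On the plain TPM scale, where the median of all genes was +0.28, limma called 16 members higher and 16 lower. Of all genes it called 4499 on that scale, 3379 of them higher. HIS1 had 140, 115 and 139 RPKM in depleted cells against 499, 501 and 474 in undepleted cells, 3.74-fold lower (−1.90 ± 0.08, adjusted p = 5.11e-08). HIS4 had 43.7, 42.1 and 44.5 against 136, 126 and 119 RPKM, 2.92-fold lower (−1.55 ± 0.06, adjusted p = 3.79e-08). HIS3 was not called, with 56.8, 55.8 and 54.9 against 58.0, 57.0 and 51.7 RPKM and overlapping groups (+0.01 ± 0.07, adjusted p = 0.932), and a correction for length and GC content gave −0.21 (0.0441). The histidine genes therefore split, with 5 of 7 lower and HIS2 and HIS3 not called.

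ARO4 fell 2.95-fold (140, 127 and 148 against 374, 417 and 430 RPKM, −1.56 ± 0.08, adjusted p = 1.1e-07), and its partner ARO3 1.57-fold (−0.65 ± 0.05, 1.33e-06). Among 8 shikimate genes 7 fell and ARO9 rose, with 121, 137 and 110 RPKM in depleted cells against 71.1, 69.3 and 60.8 in undepleted cells (+0.87 ± 0.09, adjusted p = 9.39e-06). GDH1 fell 2.66-fold (85.7, 73.1 and 80.7 against 207, 211 and 219 RPKM, −1.41 ± 0.07, adjusted p = 8.24e-08). HOM2 fell 2.42-fold (−1.27 ± 0.06, adjusted p = 6.15e-08) and HOM3, the aspartate kinase gene before it, 1.79-fold (−0.84 ± 0.06, 1.63e-06). SER33 fell (−0.66 ± 0.05, adjusted p = 1.99e-06) and SER3 was not called (+0.10 ± 0.07, 0.258). The asparagine and cysteine genes gave no call (log2 fold changes −0.04 to +0.10). TRP1 rose slightly (+0.28 ± 0.08, adjusted p = 0.00894), as did TRP5, the tryptophan synthase gene (+0.16 ± 0.06, 0.0256). The call of TRP5 was lost without depleted replicate 1 or 3 (0.0874 and 0.0684), undepleted replicate 1 or 2 (0.0533 and 0.0620) and with the replicate number as a block (0.0660).

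Undepleted degron cells already differed from low-density wildtype. Of the 42 members 28 were lower and 6 higher, where 26.5% and 30.8% of 6150 tested genes were, with a median of −0.30 against +0.04. Groups did not overlap for 35 members, against 61.8% of all genes. GDH1 was 2.10-fold lower (212 ± 6.06 against 450 ± 29.5 RPKM, SD, n = 3 each, −1.07 ± 0.08, adjusted p = 2.25e-06), and THR1 (−0.78 ± 0.05, 8.24e-07), HOM2 (−0.71 ± 0.05, 1.45e-06) and CYS3 (−0.67 ± 0.08, 5.22e-05) were lower too. SER3 was higher (+0.50 ± 0.07, adjusted p = 0.000176) and so was ARO9 (+0.46 ± 0.13, 0.0119). HIS3 was lower (−0.32 ± 0.08, adjusted p = 0.00426; −0.09 and 0.366 when corrected for length and GC content), and TRP1 was not called (−0.15 ± 0.10, 0.223). Without wildtype replicate 1 the higher count was 3. On the plain TPM scale, where the median of all genes was +0.36, limma called 19 members higher and 5 lower. Of all genes it called 4283 on that scale, 3752 of them higher. Comparing the triple mutant with undepleted cells, both with LEU2 reads, 28 members were higher and 4 lower, where 25.8% and 25.7% of 6150 tested genes were. The median was +0.39 against −0.01, and groups did not overlap for 35 members, against 64.3% of all genes. On the plain TPM scale, where the median of all genes was −0.20, limma called 16 members higher and 11 lower. Of all genes it called 3238 on that scale, 703 of them higher. All 5 threonine genes were higher in the edgeR fit. HIS4 was 2.61-fold higher (+1.38 ± 0.08, adjusted p = 2.04e-07), ASN1 1.94-fold (+0.95 ± 0.06, 4.23e-07), ARO3 1.86-fold (+0.90 ± 0.05, 2.04e-07) and HIS3 1.77-fold (+0.82 ± 0.08, 5.49e-06), while ARO9 was 2.35-fold lower (−1.23 ± 0.14, 1.91e-05). The call of GCN4 (+0.26 ± 0.09, adjusted p = 0.0251) was lost without undepleted replicate 2 or 3 (0.0531 and 0.0917) or mutant replicate 3 (0.103), and on the plain TPM scale its value was −0.11 (0.224).

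Members with and without the upstream motif are given side by side, as a description. In humanized against wildtype cells at high density 22 of the 23 with a match fell (median −0.84), and 9 of the 19 without one (median −0.28). Over all genes tested with a window, members included, 28.9% of those with a match fell and 11.9% of those without. In the triple mutant 14 of 23 with a match rose and 3 fell (median +0.19), and 2 of 19 without one rose and 11 fell (median −0.19). Of all genes 36.6% with a match and 28.1% without one rose, and 22.8% and 27.1% fell. In wildtype at high against low density 14 of 23 and 8 of 19 rose (medians +0.49 and 0.00), where 35.2% and 20.4% of all genes did. There 2 of 23 and 7 of 19 fell, where 18.3% and 24.8% of all genes did. In humanized cells over density 10 of 23 and 9 of 19 fell (medians −0.12 and −0.23), where 28% and 28.5% of all genes did. In undepleted cells against wildtype 17 of 23 and 11 of 19 fell (medians −0.29 and −0.32), where 29.6% and 27.1% of all genes did. In the depletion 16 of 23 and 10 of 19 fell (medians −0.46 and −0.21), and over all genes the shares that fell were 39.6% and 35.2%. The windows printed above show the range. HIS4, with 3 matches, was the member that moved most when humanized cells were set against wildtype at high density. The same held for the triple mutant against wildtype and against undepleted cells, for wildtype over density and for the interaction. In the remaining comparisons other members moved more. HIS1, with 2 matches, did so in the depletion (−1.90 against −1.55 for HIS4). ARO9, without a match, did so in humanized cells over density (+1.56 against +1.03). GDH1, also without one, did so in undepleted cells against wildtype (−1.07 against +0.25). ARO3, with none, changed by more than 1 on the log2 scale in humanized against wildtype cells at high density. PRO3, with 1 match, was not called in humanized cells at high density (−0.17 ± 0.09, adjusted p = 0.183) and fell in the triple mutant.

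**Figure D4:**
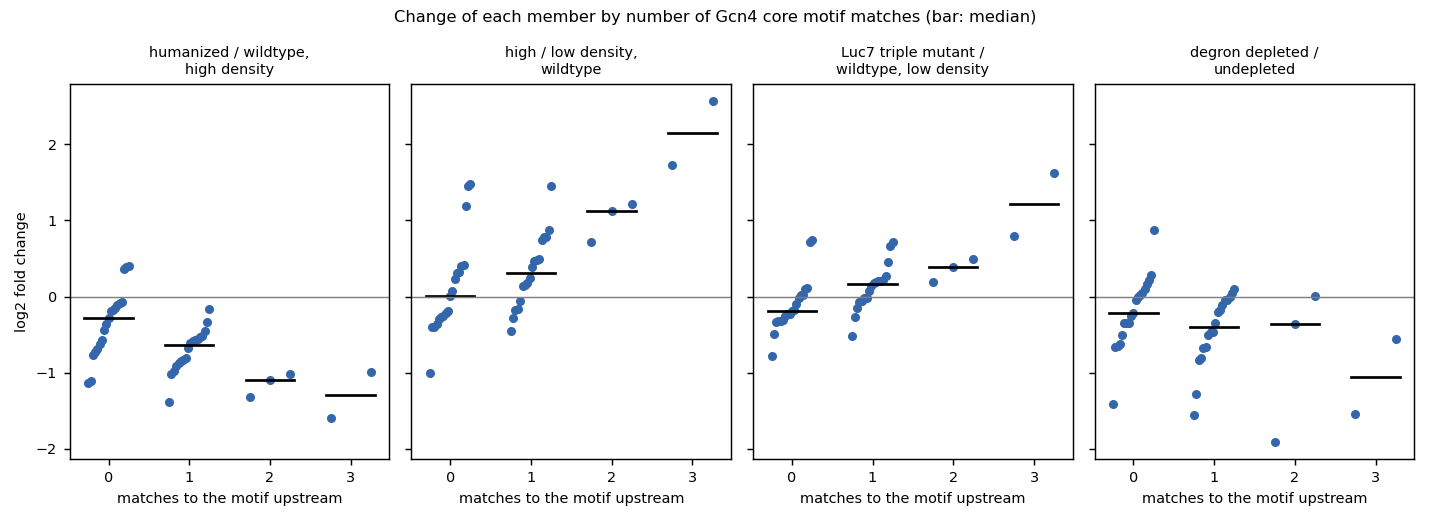
Log2 fold change of each member (points) by the number of motif matches in its upstream window, from 0 to 3, in 4 comparisons, with the median as a bar. The 5 members with 2 or 3 matches, all histidine genes, lie below 0 in humanized over wildtype cells at high density and above 0 in wildtype over density and in the triple mutant, while in the depletion HIS1 with 2 matches is lowest and HIS3 with 2 lies near 0.

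Related genes outside the members put these changes beside their pathways. PCL5, the cyclin that directs degradation of the Gcn4 protein and is itself a Gcn4 target, had 137 to 155 RPKM in humanized against 461 to 506 in wildtype cells at high density (−1.75 ± 0.07, adjusted p = 9.23e-05). It was higher in the triple mutant than in wildtype (+0.50 ± 0.13, adjusted p = 0.00864) and, unlike HIS4, higher in depleted than in undepleted cells, with 417 to 472 against 163 to 179 RPKM (+1.40 ± 0.06, 8.03e-08). PCL5 belongs to 16 genes listed here for the control of Gcn4. Of these 0 rose and 5 fell in humanized cells at high density, where 16.0% and 12.6% of all genes did. In the triple mutant 2 rose and 8 fell, where 28.3% and 26.5% of all genes did. In the depletion 3 rose and 8 fell, where 34.0% and 34.3% of all genes did. ARO10 encodes a decarboxylase of aromatic amino acid breakdown and, like ARO9, is induced through Aro80. It was lower in the triple mutant (−0.98 ± 0.11, adjusted p = 5.84e-05) and higher in depleted cells (+1.55 ± 0.12, 1.35e-06) and in wildtype at high density (+1.22 ± 0.15, 4.9e-05). ARO80 itself rose in the triple mutant (+0.59 ± 0.06, adjusted p = 3.85e-05) and in depleted cells (+0.56 ± 0.06, 1.2e-05). GCN2 gave no call in high-density humanized cells (−0.03 ± 0.09, adjusted p = 0.796) and none after depletion (+0.12 ± 0.05, 0.0687). Of 9 arginine synthesis genes 8 fell in humanized cells at high density, as did 8 of 8 leucine and branched-chain genes and 6 of 8 lysine genes, where 12.6% of all genes fell. Of 10 sulfate and methionine genes 2 rose and 2 fell. In the triple mutant 7 arginine genes rose and 1 fell, 1 leucine gene rose and 6 fell, 3 lysine genes rose and 2 fell, and 5 sulfate genes rose and 3 fell, where 28.3% of all genes rose and 26.5% fell. In the depletion 5 arginine and all 8 leucine genes fell, 2 lysine genes rose and 4 fell, and 5 sulfate genes rose and 4 fell, where 34.0% of all genes rose and 34.3% fell.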

How the data were processed

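Each of the 21 libraries had its own table over 6571 coding sequences. Per the submitters' processing notes, the authors trimmed reads with cutadapt and quantified them with Salmon 1.9, naming build sacCer3; no strand setting is stated. The authors' deposited tables give estimated counts and TPM (transcript abundance scaled to a fixed total), per the file headers. Estimated counts were rounded to whole numbers.

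Each comparison was fitted with edgeR 4.0.16 in R 4.3.3 (TMM scaling, filterByExpr, quasi-likelihood test, Benjamini-Hochberg adjustment over all genes tested, called at an adjusted p below 0.05). The low-density humanized and triple-mutant comparisons shared 1 fit with wildtype, those of undepleted cells another, and the density and interaction tests a fit of 4 groups, while the high-density and depletion pairs had their own. Levels in RPKM were computed here with TMM over all libraries, and so can differ slightly from fitted folds. All 42 members passed the filter in every comparison. Coding lengths matched R64 for all of them. Simulated data with known folds were used to test the fits. At most 100 genes were changed at each fold size, about as many up as down, with spreads taken from the same fits. Many more genes were called in most comparisons here, and recovery at such shares was not tested. Of changes of 0.5 on the log2 scale, 30% were recovered in the interaction and 49% in humanized against wildtype cells at high density. The other comparisons recovered 65 to 83%. Of changes of 1, 77 to 98% were recovered, and 5 to 15 unchanged genes were called.

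Members and gene lists were chosen with earlier results of these data known. Named with fold changes were GCN4, HIS3 and TRP1, in each comparison up to 6 called members with the largest rise and 6 with the largest fall, both of each isozyme pair where one was called, and regulators where called. Outside this rule, GCN2 is also given where it was not called. Values of members outside this rule, such as HIS2 and PRO3 in humanized cells at high density, HIS4 at low density and ASN1 and ARO3 over density, were chosen after they were seen.

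Alternatives were DESeq2 1.42.0 and its size factors, no filter, a mean of 10 CPM, the replicate number as a block, a correction for length and GC content (edgeR offset, spline with 4 df), limma 3.58.1 on log2(TPM + 1), all 7 groups in 1 fit, and each library left out. Centring of the TPM values was added after seeing the data.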

Additional observations from a re-analysis of the deposited data

Results flagged for a closer look

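For 30 members the difference between humanized and wildtype cells itself differed between high and low density, by the interaction term of the edgeR fit over 4 groups (adjusted p below 0.05, log2 values at high minus low density). Among histidine genes it was −1.53 for HIS4, −1.19 for HIS3, −1.11 for HIS7, −0.92 for HIS5 and −0.78 for HIS1. Tryptophan genes had −0.78 (TRP2), −0.76 (TRP3), −0.59 (TRP5) and −0.58 (TRP4), and TRP1 went the other way at +0.66. Shikimate genes had −1.03 (ARO3), −0.91 (ARO1), −0.64 (ARO2), −0.61 (ARO8) and −0.54 (ARO4). Threonine genes had −0.84 (HOM3), −0.80 (HOM2), −0.70 (THR1) and −0.63 (THR4). Serine genes had −0.95 (SER3), −0.85 (SER1) and −0.48 (SER2). Both asparagine synthetase genes were among them, with −1.43 for ASN1 and −0.47 for ASN2. The remaining values were −0.69 for ILV6, −0.46 for ILV1, −0.52 for GLN1, −0.44 for PRO2, −0.23 for PRO1 and +0.32 for CYS4. Of these, SER3 kept its call in 6 of 21 alternatives, GLN1 and ILV1 in 9 and PRO1 and CYS4 in 10, and each lost it without most of the single libraries left out. The block gave SER3 an adjusted p of 0.0519. High-density libraries came from an earlier experiment and the strains' OD600 differed there, and the part of either was not tested.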

How the results depend on the processing

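With 1 library left out at a time, members called higher and lower ranged over 0 to 1 and 0 to 9 for humanized against wildtype cells at low density, 0 to 2 and 24 to 32 at high density, 13 to 19 and 11 to 15 for the triple mutant against wildtype, 3 to 6 and 25 to 28 for undepleted cells against wildtype, 25 to 29 and 3 to 4 for the triple mutant against undepleted cells, 3 to 5 and 25 to 27 for the depletion, 20 to 26 and 8 to 13 for density in wildtype, 5 to 6 and 15 to 19 for density in humanized cells, and 1 to 2 and 24 to 31 for the interaction. The low-density humanized count of 2 lower became 1 with no filter, with a mean of 10 CPM, with the block and with centred TPM, 5 with the offset for length and GC content, 7 with DESeq2, and 0 with TPM and with all 7 groups in 1 fit. The labels give no pairing of same-numbered libraries beyond the number. Their deviations correlated at −0.43 to 0.544, and in no comparison were all above 0.1. Wildtype over density had 0.039, 0.544 and 0.323. With 3 libraries per group these values cannot decide whether the libraries were paired. With the replicate number as a block, members called higher and lower were 1 and 28 for humanized against wildtype cells at high density, 15 and 11 for the triple mutant against wildtype, 3 and 26 for the depletion and 2 and 25 for the interaction.

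Under plain TPM the median of all genes was 0.13 to 0.36 in size, except for the interaction (0.02). It gave 6 lower for the triple mutant against wildtype, 19 higher and 5 lower for undepleted cells against wildtype, 16 and 11 for the triple mutant against undepleted cells, 16 and 16 for the depletion, 2 lower for density in wildtype and 11 and 11 in humanized cells. Of all genes, plain TPM called 2789 for the triple mutant against wildtype, 2017 of them higher. For density in wildtype it called 2854 of all genes, 2290 of them higher. The interaction had 1 higher with TPM, centred TPM and DESeq2 size factors, and centred TPM gave 2 higher in the depletion.

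Signs turned for these log2 values under plain TPM. At low density in humanized cells HIS3 was 0.0647 and ARO3 0.0918, and at high density GCN4 was 0.0155. In undepleted cells against wildtype TRP1 was 0.26, ARO3 0.14, HOM6 0.0119, SER33 0.22, ASN1 0.034 and GCN4 0.0485, and in the triple mutant against undepleted cells ASN2 was −0.0569 and GCN4 −0.11. Over density SER33 was 0.19 and TRP1 0.0044 in wildtype, GCN4 0.024 in humanized cells and 0.0342 in the interaction. Centred TPM gave −0.0055 for HIS3 in the depletion and, over density in humanized cells, −0.0634 for HIS3 and −0.0838 for ASN1, which was −0.0014 with DESeq2 size factors and −0.0025 with DESeq2. The offset gave −0.21 for HIS3 in the depletion, 0.0094 for TRP1 in undepleted cells, and −0.0515 for SER3 and −0.0518 for the members' median in the triple mutant against wildtype. Leaving out a library gave −0.0708 to 0.17 for ARO9 and −0.14 to 0.0757 for GCN4 in the interaction, −0.0186 to 0.0347 for ASN1 and −0.0168 to 0.11 for HIS3 over density in humanized cells, −0.0362 to 0.0456 for HIS3 in the depletion and −0.0342 to 0.0514 for SER3 in the triple mutant against wildtype. The cause was not tested. Called members that kept their call under every alternative were 23 of 33 at high density, 17 of 30 for the triple mutant against wildtype, 18 of 30 for the depletion and 25 of 30 for the interaction. They were 22 of 31 for density in wildtype, 15 of 25 in humanized cells and 19 of 32 for the triple mutant against undepleted cells. For undepleted cells against wildtype only 8 of 34 kept it, with 17 lost only under plain TPM. In humanized cells at low density 0 of 2 did.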
